A study of Mus musculus with 42 samples.

Results

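The genes described here are 9 of the 54446 genes counted in mouse liver, chosen by name as 6 matrix metalloproteinases (Mmp2, Mmp7, Mmp12, Mmp13, Mmp14 and Mmp19) and 3 tissue inhibitors of metalloproteinases (Timp1, Timp2 and Timp3). Each was found once in the deposited table, and all 9 passed the filter on low counts. Liver RNA was sequenced in 42 female APOE*3-Leiden mice, which carry a human transgene for a variant of apolipoprotein E and so have a raised plasma cholesterol on a fat-rich diet, with 1 library per mouse. All animals were studied at 32 weeks. The 10 chow-fed mice, the reference group, ate only maintenance chow. The 16 WTD-fed mice were 8 to 14 weeks old when they began a semi-synthetic Western-type diet (WTD) with 15% cocoa butter, 40.5% sucrose and 1% cholesterol, given during a run-in of 3 weeks and then to the endpoint. From week 22 this diet also held 0.05% sodium cholate, so diet and cholate cannot be told apart. The 16 atorvastatin-treated mice received the same diet with atorvastatin mixed in, at 3.0 mg/kg/day and, from week 5, at 4.5 mg/kg/day. Age at the start is given here for the mice put on WTD.

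Matrix metalloproteinases (MMPs) are zinc-dependent enzymes that cut collagens, elastin, proteoglycans and other proteins outside the cell. They are made as inactive proenzymes and are switched on by the removal of a propeptide, often by plasmin, by furin or by another MMP. TIMPs bind the active site and block it, so the balance of both families shapes how much scar matrix a liver keeps. In a fibrotic liver, stellate cells are a known source of Mmp2 and TIMPs, macrophages of Mmp12 and Mmp13, and bile duct epithelium of Mmp7. RNA levels say nothing directly about the amount of active enzyme.

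Sequencing depth ran from 15661381 to 36224054 counts on genes per library. Levels are given as CPM, the usual unit of counts scaled to library size, here after TMM scaling. Libraries were not equally rich in weak transcripts. In 8 of them (chow 3, WTD 4, atorvastatin 1) over 20% of the genes at a mean of 1 to 2 CPM had no count. This touches Mmp7, Mmp13 and Timp1, the weakest genes of the group. The WTD-fed mouse Gen#20 stood apart: it had the lowest level of its group for 7 of the 9 genes and the highest for Mmp19. Chow-fed mice are numbered with the prefix AZ and both WTD groups with Gen, so diet and whatever that prefix marks cannot be told apart. Hepatocyte markers were high throughout, with a summed level of at least 51870 CPM over 8 genes in every library.

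Mmp13 (ENSMUSG00000050578.10, chr9:7272514-7283331), Mmp12 (ENSMUSG00000049723.14, chr9:7344381-7369499) and Mmp7 (ENSMUSG00000018623.9, chr9:7692090-7699585) lie near each other on the plus strand of chromosome 9 in GRCm38, within a cluster of MMP genes. Mmp2 (ENSMUSG00000031740.8) is at chr8:92827291-92853420, Mmp14 (ENSMUSG00000000957.11) at chr14:54431612-54445364 and Mmp19 (ENSMUSG00000025355.7) at chr10:128790910-128800824. Timp1 (ENSMUSG00000001131.11) is at chrX:20870166-20874735, Timp2 (ENSMUSG00000017466.9) on the minus strand at chr11:118301069-118355740 and Timp3 (ENSMUSG00000020044.13) at chr10:86300372-86349506. Some of these genes share exon bases with a gene on the other strand: 789 of 3533 for Mmp19 with Tmem198b, and 1733 of 8144 for Timp3 with Syn3. The libraries kept the strand, but the strand setting of the counting is not given in the sources used here. Mmp7 shares 123 of 1068 exon bases with AV064505, an antisense gene, and Mmp12 shares 157 of 7237 with Mmp1b. Values of these 4 genes are therefore less certain.

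Promoters of 7 of the 9 genes were read from RefSeq (GRCm38.p6) as the 250 bases before each annotated start. Those of Mmp2 and Mmp19 were not analysed here. They were searched on both strands for TGANTCA, the motif of AP-1, for TATAAA, the site of the TATA-binding protein, and for AGGAAG, a motif of ETS factors. Printed below is a window for each of the 3 neighbours on chromosome 9, which differed in how they responded to WTD, and for Timp1, the TIMP with the largest fold change. Mmp12 and Mmp7 each had a further annotated start, whose window is not printed. All printed windows are plus-strand sequences, written 5′ to 3′, and capitals mark the motif matches.
Mmp13, chr9:7272264-7272513: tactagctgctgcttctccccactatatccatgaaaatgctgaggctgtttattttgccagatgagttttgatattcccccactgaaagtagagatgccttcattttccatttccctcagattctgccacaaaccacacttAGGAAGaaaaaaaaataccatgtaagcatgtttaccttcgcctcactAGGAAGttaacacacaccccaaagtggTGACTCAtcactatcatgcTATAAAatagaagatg
Mmp12, second start, chr9:7347124-7347373: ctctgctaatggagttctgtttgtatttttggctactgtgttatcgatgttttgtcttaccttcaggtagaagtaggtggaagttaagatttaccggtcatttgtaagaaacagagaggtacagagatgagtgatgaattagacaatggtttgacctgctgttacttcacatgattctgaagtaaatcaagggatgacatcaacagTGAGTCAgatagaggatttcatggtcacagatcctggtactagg
Mmp7, chr9:7691840-7692089: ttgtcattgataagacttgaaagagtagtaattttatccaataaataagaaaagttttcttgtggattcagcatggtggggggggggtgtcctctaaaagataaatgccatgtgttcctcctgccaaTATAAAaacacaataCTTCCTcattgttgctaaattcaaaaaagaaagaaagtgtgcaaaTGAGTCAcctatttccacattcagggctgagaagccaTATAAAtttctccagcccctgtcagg
Timp1, chrX:20869916-20870165: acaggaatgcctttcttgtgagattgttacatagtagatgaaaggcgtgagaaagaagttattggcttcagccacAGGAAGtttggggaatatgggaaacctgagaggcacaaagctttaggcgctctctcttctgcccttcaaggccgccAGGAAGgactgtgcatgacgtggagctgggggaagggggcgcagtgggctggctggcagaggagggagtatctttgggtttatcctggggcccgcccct

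TGANTCA was present in a window of each of the 3 chromosome 9 genes, at bases -35 to -29 before the start of Mmp13, -44 to -38 of the second start of Mmp12 and -63 to -57 of the first start of Mmp7. The windows of the first start of Mmp12 and the second start of Mmp7 held only AGGAAG. So 3 of the 9 windows of these genes held TGANTCA, as did 6.75% of all 32851 windows of this length. TATAAA was present in Mmp13 and Mmp7, in 2 of the 9 windows, and in 12.4% of all windows. AGGAAG was present in 6 of the 7 genes, in 7 of the 9 windows, and in 29.5% of all windows. The Timp1 window held only AGGAAG, and the Timp2 window none of the 3 motifs, although 203 of its 250 bases lie in annotated Timp2 exons. Both Mmp13 and Mmp7 held all 3 motifs. These matches are descriptions of the letters.

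The first comparison asked how a Western-type diet changed these genes. In WTD-fed mice, 7 of the 9 genes were higher than in chow-fed mice and 1, Mmp19, was lower, at an adjusted p under 0.01 (edgeR's quasi-likelihood test, adjusted over 15574 genes). Among all tested genes 17.5% were called higher and 16.0% lower. The median log2 fold change of the 9 genes was 1.88, against 0.03 over all tested genes. For Mmp2, Mmp12, Timp1, Timp2 and Timp3 every WTD-fed mouse lay above every chow-fed mouse, a separation upwards that 3.40% of all tested genes showed. Mmp13 did not pass the test.

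**Figure D1:**
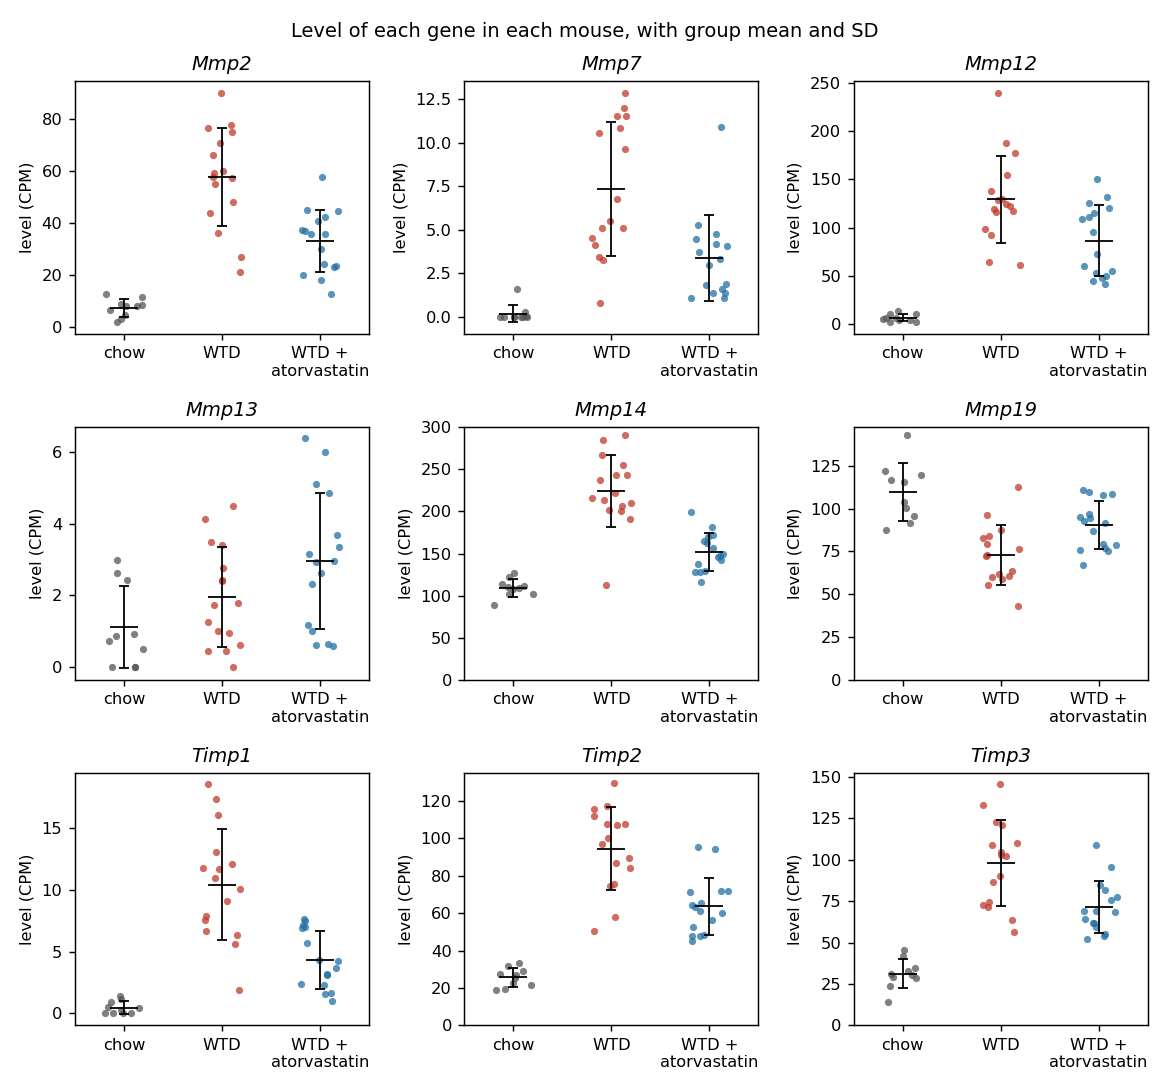
Level of each of the 9 genes in each mouse (vertical axes, CPM, linear), with chow-fed (n = 10), WTD-fed (n = 16) and atorvastatin-treated mice (n = 16) side by side; points are mice, and bars are the group mean and SD. Mmp2, Mmp12, Timp1, Timp2 and Timp3 do not overlap between chow and WTD, while Mmp19 runs the other way and Mmp13 overlaps in all groups.

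Mmp12, macrophage elastase, had the largest fold change among the genes measured in all chow-fed mice. Its level in chow-fed mice ran from 1.91 to 13.2 CPM with a median of 5.71, and in WTD-fed mice from 60.8 to 240 CPM with a median of 123. The groups did not overlap, and the log2 fold change was 4.30 ± 0.31 (SE, adjusted p = 1.1e-14, edgeR), a 19.7-fold difference. Mmp2, gelatinase A, which cuts denatured collagen and basement membrane, had 1.72 to 12.8 CPM on chow (median 8.04) and 21.1 to 90.2 CPM on WTD (median 58.5). Again no mice overlapped, and the log2 fold change was 2.96 ± 0.27 (adjusted p = 5.6e-12, edgeR).

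Mmp7, matrilysin, a small MMP of epithelia, had no count in 7 of the 10 chow-fed mice. A count of 0 allows up to 3 counts, which is 0.123 to 0.174 CPM in those libraries. The other chow-fed mice had 1, 8 and 27 counts, the last in mouse AZ#1 with 1.61 CPM. In WTD-fed mice the level ran from 0.803 to 12.9 CPM with a median of 6.12, and 15 of 16 lay above every chow-fed mouse. The exception was Gen#20. In Mmp7 the log2 fold change was 5.24 ± 0.67 (adjusted p = 5.4e-09, edgeR), and it was 7.16 without AZ#1, so the size of this difference rests on that mouse while the call does not.

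Mmp14, a membrane-bound MMP that activates the proenzyme of Mmp2, was abundant in all groups. Chow-fed mice had 89.1 to 127 CPM (median 109) and WTD-fed mice 112 to 291 CPM (median 219). All WTD-fed mice but Gen#20 lay above the chow range, and the log2 fold change was 1.04 ± 0.10 (adjusted p = 4e-13, edgeR).

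Mmp13, the main interstitial collagenase of rodents, was the weakest of the 9 genes on both WTD diets. It had 0 to 2.98 CPM on chow (median 0.788) and 0 to 4.51 CPM on WTD (median 1.74), with 3 chow-fed and 1 WTD-fed mouse at 0. The ranges overlapped nearly in full, and the log2 fold change of 0.82 ± 0.61 did not pass the test (adjusted p = 0.28, edgeR).

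Mmp19, an MMP of basement membrane substrates, was the exception in direction. Chow-fed mice had 87.4 to 143 CPM (median 109.9) and WTD-fed mice 43.3 to 113 CPM (median 72.6). Of the WTD-fed mice, 13 of 16 lay below every chow-fed mouse. Its log2 fold change was -0.59 ± 0.10 (adjusted p = 5e-06, edgeR), and it had the same sign under each alternative run.

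All 3 TIMP genes rose on WTD. Timp1, the inducible inhibitor often used as a blood marker of liver fibrosis, was barely measured on chow, with 4 of 10 mice at 0 counts and at most 1.38 CPM (median 0.354). WTD-fed mice had 1.86 to 18.6 CPM (median 10.5), without overlap, and the log2 fold change was 4.46 ± 0.51 (adjusted p = 3.7e-10, edgeR). Timp2, which with Mmp14 also takes part in the activation of Mmp2, had 18.9 to 33.5 CPM on chow (median 26.3) and 50.2 to 130 CPM on WTD (median 98.7). For Timp2 the log2 fold change was 1.88 ± 0.14 (adjusted p = 4e-16, edgeR), which is smaller than that of Timp1 but had the lowest adjusted p of the 9 genes. Timp3, which is held in the matrix, had 14.1 to 45.8 CPM on chow (median 30.8) and 56.3 to 146 CPM on WTD (median 103), a log2 fold change of 1.65 ± 0.15 (adjusted p = 2.2e-12, edgeR).

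The second comparison asked what atorvastatin changed on the same diet. Compared with WTD-fed mice, 4 of the 9 genes were lower in atorvastatin-treated mice (Mmp2, Mmp14, Timp2 and Timp3) and none was higher. Over all tested genes 2.26% were called lower and 4.84% higher. With RLE in place of TMM scaling, 5 of the 9 were lower, and the share of higher genes among all called genes moved from 68.2% to 54.9%. The median log2 fold change of the 9 genes was -0.57, against 0.00 over all tested genes. The WTD-fed mice enter the first and the second comparison, so these results are not independent.

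Mmp14 had the most certain difference. Atorvastatin-treated mice ranged from 117 to 200 CPM with a median of 148, and each of the 16 lay below the WTD median of 219. The log2 fold change was -0.56 ± 0.08 (adjusted p = 1.4e-05, edgeR), and it held under each alternative run. Timp2 ranged from 45.0 to 95.2 CPM (median 62.3) under atorvastatin, also with all 16 mice below the WTD median of 98.7. It fell by 0.57 ± 0.11 on the log2 scale (adjusted p = 0.00029, edgeR), and this call too held throughout.

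Mmp2 and Timp3 were called in the main fit but sat near the threshold. Mmp2 ranged from 12.8 to 57.6 CPM under atorvastatin (median 35.7), with all 16 mice below the WTD median of 58.5 but only 3 below the WTD range. Its log2 fold change was -0.81 ± 0.21 (adjusted p = 0.0064, edgeR). The call was lost without the 8 libraries poor in weak transcripts (adjusted p = 0.012). Timp3 ranged from 52.4 to 109 CPM (median 68.8), with 15 of 16 mice below the WTD median of 103. For Timp3 the log2 fold change was -0.46 ± 0.13 (adjusted p = 0.0099, edgeR), and without those libraries the adjusted p was 0.028.

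The remaining 5 genes did not pass the test. Timp1 ranged from 1.02 to 7.66 CPM under atorvastatin with a median of 3.96, and all 16 mice lay below the WTD median of 10.5. Its log2 fold change of -1.26 ± 0.36 was the largest of the 9 in size and just missed the threshold (adjusted p = 0.012, edgeR). Without Gen#20 the adjusted p of Timp1 was 0.0042, and with DESeq2 0.0017. Over 9 other settings (edgeR, limma-voom or DESeq2) its adjusted p ran from 3e-05 to 0.04. The log2 fold change ran from -1.31 to -0.995 there. Leaving out each mouse in turn gave an adjusted p of 0.0042 to 0.023 (edgeR).

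Mmp7 had 1.09 to 10.9 CPM (median 3.15) and a log2 fold change of -1.13 ± 0.44 (adjusted p = 0.082, edgeR), with 15 of 16 mice below the WTD median. Mmp12 had 41.1 to 150 CPM (median 84.0) and a log2 fold change of -0.58 ± 0.22 (adjusted p = 0.075, edgeR), with 13 of 16 mice below the WTD median and 7 below the WTD range. Mmp13 had 0.572 to 6.39 CPM (median 2.94) and a log2 fold change of 0.60 ± 0.52 (adjusted p = 0.54, edgeR). Mmp13 thus had the opposite sign to the TIMPs, with a standard error nearly as large as the difference. Another collagenase, Mmp8, had the sign of the TIMPs and did not pass either (-0.883 ± 0.715, adjusted p = 0.51, edgeR).

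Mmp19 had 66.9 to 111 CPM (median 92.2) under atorvastatin. Of these mice, 15 of 16 lay above the WTD median of 72.6. The log2 fold change was 0.31 ± 0.09 and missed the threshold (adjusted p = 0.016, edgeR), while without Gen#20, the WTD-fed mouse with the highest Mmp19, the adjusted p was 0.0018. Over 10 other settings (edgeR, limma-voom or DESeq2) the adjusted p of Mmp19 ran from 0.00012 to 0.081. Leaving out each mouse in turn gave 0.0018 to 0.033 (edgeR).

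The third comparison set atorvastatin-treated mice against chow-fed mice, and so shares its mice with the first and the second. Here 7 of the 9 genes were higher and none was lower, where 14.2% of all tested genes were called higher and 10.7% lower. Log2 fold changes were 2.16 ± 0.27 for Mmp2, 4.11 ± 0.64 for Mmp7 and 3.72 ± 0.30 for Mmp12. Among the more abundant genes they were 0.47 ± 0.09 for Mmp14, 1.31 ± 0.13 for Timp2 and 1.19 ± 0.15 for Timp3, and for the weak Timp1 3.20 ± 0.49 (adjusted p from 7.6e-13 for Mmp12 to 6e-05 for Mmp14, edgeR). Mmp7 was again 6.03 without AZ#1. Mmp2, Mmp12, Timp2 and Timp3 did not overlap between these groups, against 2.88% of all tested genes. Mmp13 (1.42 ± 0.62, adjusted p = 0.071) and Mmp19 (-0.28 ± 0.10, adjusted p = 0.034) did not pass the test.

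**Figure D2:**
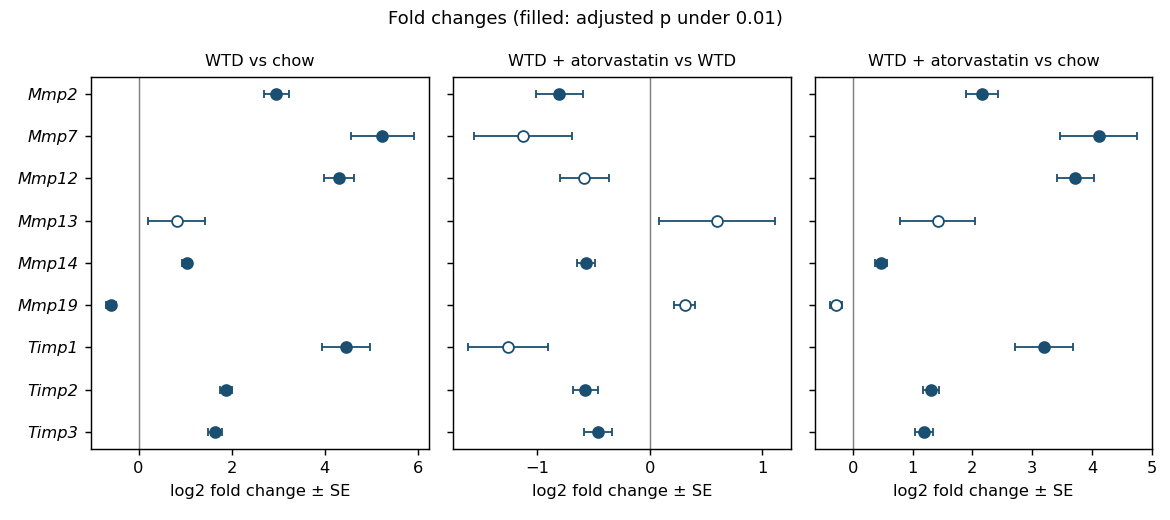
Log2 fold change with its standard error (horizontal axes) for each of the 9 genes in the 3 comparisons; filled points passed an adjusted p under 0.01. In WTD against chow 7 filled points lie to the right of 0 and that of Mmp19 to the left, and under atorvastatin against WTD the 4 called genes all lie to the left of 0.

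To compare levels between genes, CPM were divided by the length of each gene's annotated exons, whichever of its transcripts were expressed. Before this division Mmp19 and Mmp14 were level on chow, with means of 109.7 and 109.4 CPM. Per kb, Mmp19 was the highest of the 9 genes in chow-fed livers, with 31.1 ± 4.80 CPM per kb (SD, n = 10), followed by Mmp14 with 18.4 ± 1.78. This order held in 10 of 10 mice, as did Mmp14 over Timp2 (6.60 ± 1.28) and Timp2 over Timp3 (3.83 ± 1.09). Below Mmp2 (2.18 ± 1.03), the levels of Mmp12, Timp1, Mmp13 and Mmp7 were all under 1 CPM per kb on average, and their order was not the same from mouse to mouse. On WTD, Mmp14 led with 37.7 ± 7.16 CPM per kb (n = 16), above Timp2 (24.3 ± 5.65) in 16 of 16 mice. Timp2, Mmp19 (20.7 ± 4.93), Mmp12 (17.9 ± 6.20) and Mmp2 (17.1 ± 5.64) followed in an order that changed between mice, and Timp3 and Timp1 did not differ beyond their spread, at 12.0 ± 3.18 and 11.7 ± 5.06. Under atorvastatin Mmp19 and Mmp14 were level, with 25.6 ± 3.97 and 25.5 ± 3.74 CPM per kb.

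The makeup of the transcripts of these 6 MMP genes changed accordingly. Other MMP genes, such as Mmp15 with a mean of 41.6 CPM on chow, are not part of these shares. Mmp19 was 58.3% ± 3.56 (SD) of the summed level per kb of the 6 MMP genes on chow, 21.3% ± 8.45 on WTD and 34.1% ± 7.97 under atorvastatin. Mmp14 kept a like share, with 34.7% ± 3.14, 37.3% ± 5.64 and 33.1% ± 2.03. In the same order of groups, Mmp12 was 1.71% ± 0.996, 17.5% ± 5.31 and 15.1% ± 5.06, and Mmp2 was 4.13% ± 1.96, 16.6% ± 4.32 and 12.4% ± 3.23. Among the TIMPs, Timp2 was the main transcript in each group, with 60.8% ± 7.35, 51.1% ± 5.54 and 55.0% ± 3.84. The Timp1 share was 4.28% ± 4.73 on chow, 23.6% ± 7.41 on WTD and 15.3% ± 5.72 under atorvastatin. The summed level was 53.1 ± 5.78, 100.9 ± 13.1 and 77.1 ± 11.0 CPM per kb for the 6 MMPs, and 11.0 ± 2.17, 48.0 ± 11.7 and 29.9 ± 7.84 for the 3 TIMPs. These shares follow from the values above and were not tested.

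**Figure D3:**
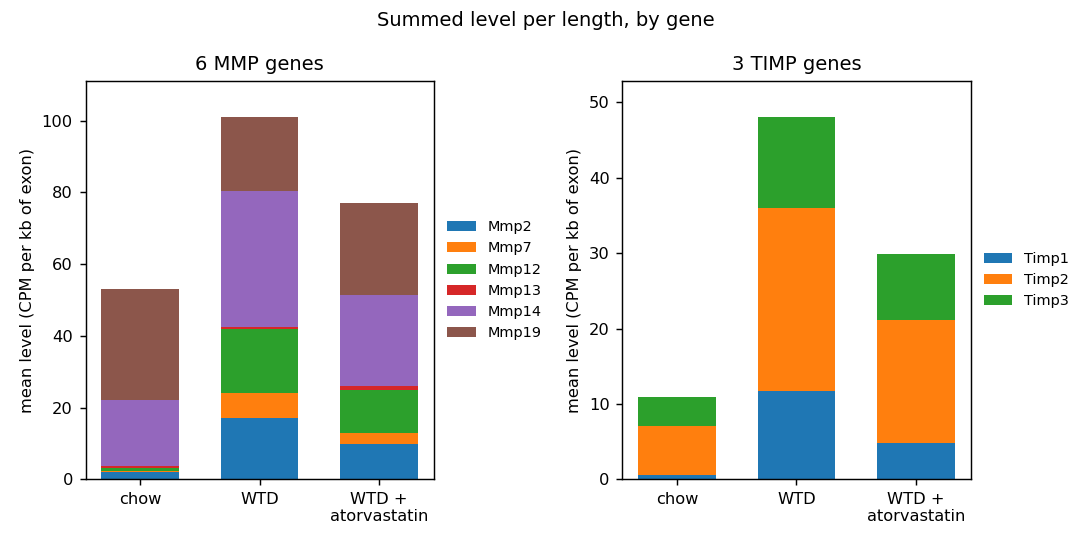
Mean level per kb of exon (vertical axes, CPM per kb) of the 6 MMP genes on the left and the 3 TIMP genes on the right, stacked by gene for the 3 groups. Mmp19 makes up 31.1 of the 53.1 CPM per kb of the MMP bar on chow and 20.7 of 100.9 on WTD. The TIMP bar rises from 11.0 to 48.0 CPM per kb.

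Of the 17 other MMP genes, 11 passed the filter. On WTD, 4 rose and none fell: Mmp27 by 2.57 ± 0.32 on the log2 scale, Mmp23 by 1.35 ± 0.23, Mmp8, the neutrophil collagenase, by 3.60 ± 0.98, and Mmp24 by 3.47 ± 0.98 (adjusted p from 1.8e-09 to 0.003, edgeR). Mmp8 and Mmp24 were at 0 counts in 9 and 7 of the 10 chow-fed mice, so the size of their fold depends on few counts. In place of 4, 2 of these genes were called both without the libraries poor in weak transcripts and with at least 10 counts asked of every mouse. Mmp27 had 0 to 4.25 CPM on chow and 7.98 to 17.7 CPM on WTD, without overlap. Mmp3 (0.22 ± 0.99), Mmp9 (0.99 ± 0.63), Mmp11 (0.24 ± 0.30), Mmp15 (0.34 ± 0.12), Mmp17 (1.08 ± 0.55), Mmp25 (0.04 ± 0.92) and Mmp28 (0.08 ± 0.66) did not pass the test.

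Under atorvastatin none of these 11 genes was called against WTD by edgeR. Mmp23 (-0.67 ± 0.19, adjusted p = 0.012) and Mmp11 (-0.74 ± 0.26, adjusted p = 0.049) had an unadjusted p under 0.05, and most other settings called 1 of the 11 (limma-voom 2), each lower, among them DESeq2 and RLE scaling. Mmp27 had 2.57 to 15.6 CPM, with a log2 fold change of -0.22 ± 0.24 against WTD (adjusted p = 0.67) and of 2.35 ± 0.31 against chow (adjusted p = 2.9e-08). Mmp9, gelatinase B, had 0 to 8.03 CPM on WTD and 1.66 to 4.99 CPM under atorvastatin (0.82 ± 0.53, adjusted p = 0.36).

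**Figure D4:**
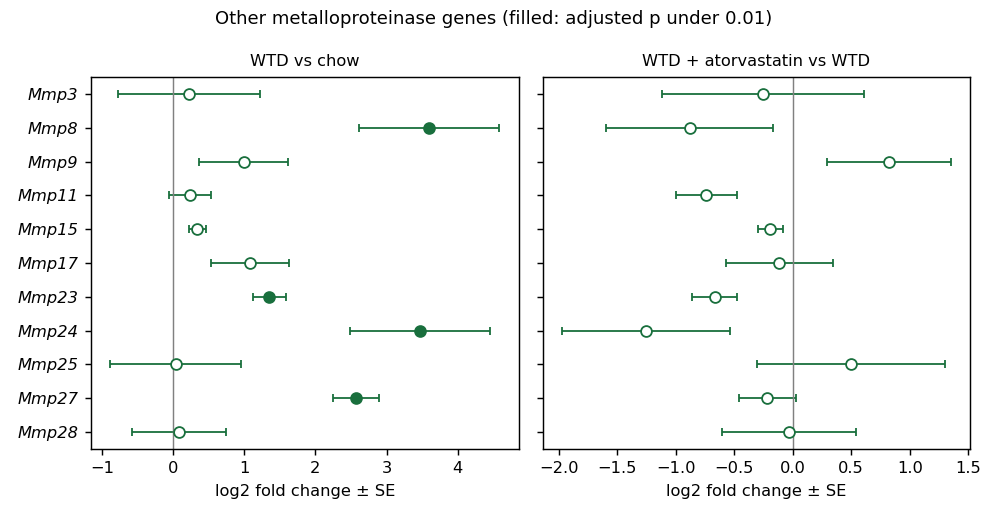
Log2 fold change with its standard error (horizontal axes) of the 11 other MMP genes that passed the filter, for WTD against chow on the left and atorvastatin against WTD on the right; filled points passed an adjusted p under 0.01. Mmp8, Mmp23, Mmp24 and Mmp27 are filled on the left, and no point is filled on the right.

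Other inhibitors and scavengers of metalloproteinases were also counted. The list held 9 genes, among them Pcolce, an enhancer of procollagen processing. Of these 9 genes 7 were tested, and on WTD 1, Pcolce, rose and 2 fell. Among all tested genes 17.5% were called higher and 16.0% lower on WTD. The shares were 4.84% and 2.26% under atorvastatin against WTD, and 14.2% and 10.7% against chow. They are the background for every list counted here. Tfpi2, an inhibitor of plasmin and MMPs, fell by 0.83 ± 0.11 on WTD (adjusted p = 3.2e-09) and rose by 0.42 ± 0.09 under atorvastatin against WTD (adjusted p = 0.0013, edgeR). Pzp, an alpha-macroglobulin that traps proteinases, rose by 0.40 ± 0.07 under atorvastatin (adjusted p = 0.00014). Mug1 fell by 0.39 ± 0.12 on WTD (adjusted p = 0.0051), while Pcolce rose by 0.51 ± 0.13 (adjusted p = 0.0015). In atorvastatin against chow 1 was called higher, Mug2 (0.37 ± 0.11), and 1 lower, Tfpi2 (-0.41 ± 0.11).

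Among 12 genes of proenzyme activation and the plasminogen system, 5 rose and 5 fell on WTD. The falls included Plg, the plasmin precursor (-0.75 ± 0.09), its inhibitor Serpinf2 (-0.78 ± 0.08) and the protease Hpn (-0.68 ± 0.07), which hepatocytes are known to make. Plau, the urokinase activator of plasminogen, was higher by 2.67 ± 0.37 in atorvastatin-treated mice than in chow-fed mice. Under atorvastatin against WTD, 4 rose and 1 fell. The rises included Plg (0.40 ± 0.08) and Furin, which cleaves the propeptide of Mmp14 (0.38 ± 0.08), and the fall was Serpine2 (-1.26 ± 0.27, adjusted p = 0.001, edgeR). Against chow, 6 were higher and 5 lower under atorvastatin.

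ADAM and ADAMTS proteinases, relatives of the MMPs, rose on WTD in 12 of 18 cases and fell in 1. Adamts5, an aggrecanase, rose by 2.01 ± 0.24, Adam10, a sheddase, by 0.77 ± 0.10 and Adamts2, a procollagen proteinase, by 1.81 ± 0.23. Under atorvastatin against WTD, 1 was higher, Adamts13 (0.86 ± 0.17), and 1 lower, Adamts5 (-0.97 ± 0.19). Adam9, at 0.22 ± 0.07, did not pass (adjusted p = 0.03, edgeR). Against chow, 13 of 18 were higher under atorvastatin, including Adam17, the TNF sheddase that Timp3 inhibits (0.75 ± 0.12).

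Of 10 partners on the cell surface, 5 rose and 3 fell on WTD. Cd63, a receptor of Timp1, rose by 3.00 ± 0.23 on WTD and fell by 1.10 ± 0.18 under atorvastatin against WTD (adjusted p = 4.2e-05, edgeR). Cd44, a docking site of MMPs, rose by 1.99 ± 0.18 and Itgb1 by 0.66 ± 0.06 on WTD. Under atorvastatin against WTD 3 were lower, Itgav among them (-0.49 ± 0.10), and 1 was higher, Kdr (0.46 ± 0.11), the endothelial receptor that Timp3 blocks. Against chow, 4 were higher and 3 lower under atorvastatin.

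Matrix substrates rose on WTD in 17 of 18 cases, with a median log2 fold change of 1.74. Col1a2 rose by 3.43 ± 0.23 and Col3a1 by 2.83 ± 0.20, which code for fibrillar collagens, and Dcn, the proteoglycan decorin, by 0.99 ± 0.08. Fn1, fibronectin, was the gene not called (-0.09 ± 0.10, adjusted p = 0.48). Under atorvastatin against WTD, 5 were lower, including Col1a2 (-0.77 ± 0.17) and Spp1, osteopontin (-0.79 ± 0.16), and Fn1 was higher (0.52 ± 0.09). Against chow, 17 of 18 were higher under atorvastatin, such as Bgn, the proteoglycan biglycan (1.24 ± 0.11), and Fn1 (0.43 ± 0.10). Here Vcan, the proteoglycan versican, did not pass (1.81 ± 0.77, adjusted p = 0.063, edgeR).

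Markers of cells known to make MMPs and TIMPs were set beside these values. In bulk liver, fewer cells of a type and less RNA per cell cannot be told apart. Summed over 8 macrophage markers, levels were 215 to 325 CPM on chow, 1187 to 2666 on WTD and 950.1 to 1879 under atorvastatin. On WTD 7 of the 7 tested markers rose, from Csf1r (1.73 ± 0.09) to Clec7a (3.75 ± 0.18), with Mpeg1 (2.56 ± 0.10) and Lyz2 (3.47 ± 0.15) between, and under atorvastatin against WTD 4 fell, among them Lyz2 (-0.99 ± 0.12) and Cd68 (-0.56 ± 0.10). Itgam is listed at 0 in all mice. Lipid-associated macrophage markers, without Mmp12, summed to 150 to 384 CPM on chow, 779 to 2478 on WTD and 734 to 1668 under atorvastatin. All 7, with Mmp12 counted, rose on WTD, with Gpnmb (6.40 ± 0.33) and Trem2 (3.83 ± 0.24) beside it, and 4 fell under atorvastatin against WTD, such as Trem2 (-0.97 ± 0.17) and Lpl (-1.02 ± 0.21).

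Stellate cell and myofibroblast markers summed to 269 to 604 CPM on chow, 831 to 1908 on WTD and 741 to 1822 under atorvastatin. Of 12 markers 5 rose on WTD, such as Col1a1 (3.53 ± 0.31) and Pdgfrb (1.87 ± 0.18), and 7 did not pass, among them Lrat (0.51 ± 0.19), Acta2 (-0.50 ± 0.27) and Des (-0.65 ± 0.41). Under atorvastatin against WTD 2 fell, Lum (-1.36 ± 0.22) and Pdgfrb (-0.61 ± 0.14), and 1 rose, Reln (0.47 ± 0.10). Cholangiocyte markers summed to 41.7 to 66.0 CPM on chow, 56.7 to 154 on WTD and 58.0 to 130 under atorvastatin. All 8 rose on WTD, with Epcam (2.08 ± 0.22), Krt19 (1.91 ± 0.27) and Cldn4 (3.98 ± 0.60), and none was called under atorvastatin against WTD, where all 8 had a negative sign (Epcam -0.51 ± 0.18, adjusted p = 0.047, edgeR). Hepatocyte markers fell on WTD in 8 of 8 cases, such as Serpina1c (-1.65 ± 0.11) and Ttr (-1.29 ± 0.10), and 6 of 8 rose under atorvastatin against WTD, such as Alb (0.63 ± 0.10) and Cps1 (0.70 ± 0.13). What part of the MMP and TIMP differences goes with the number of such cells was not tested.

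Within a group, MMP and TIMP levels were compared with these markers from mouse to mouse. For each of the 9 genes, the level, as log2(CPM + 0.5), was set against the mean level of the stellate, macrophage and cholangiocyte markers over the 16 WTD-fed and over the 16 atorvastatin-treated mice, which gave 54 relations. At an adjusted permutation p under 0.05, 38 passed by Pearson's r and 31 by both r and Spearman's rho (12 of 27 on WTD and 19 of 27 under atorvastatin). All relations share the library and its scaling, so they are not independent.

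**Figure D5:**
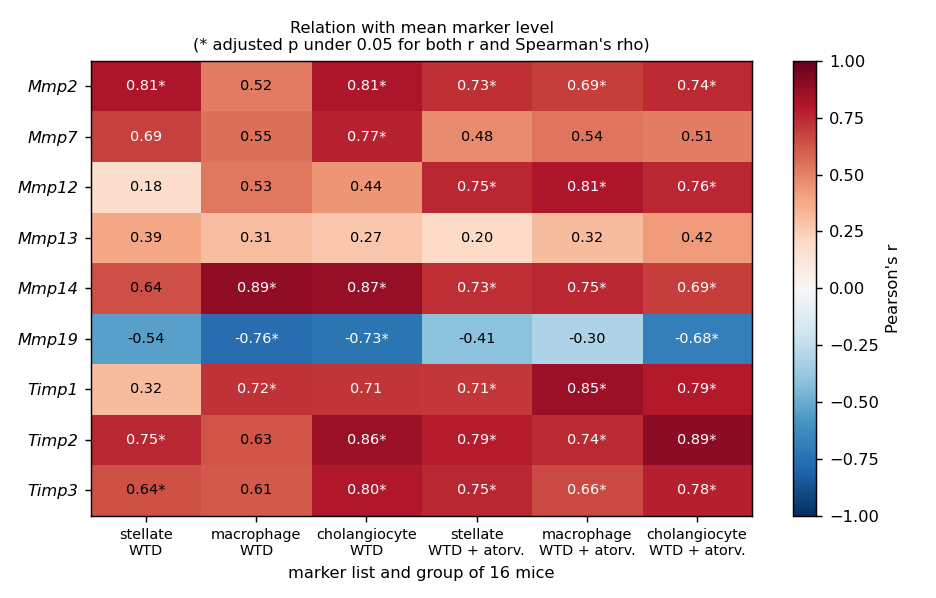
Pearson's r between the level of each gene (rows) and the mean level of 3 marker lists in 16 WTD-fed and 16 atorvastatin-treated mice (columns), all on the scale log2(CPM + 0.5); an asterisk marks an adjusted permutation p under 0.05 for both r and Spearman's rho. Timp2 reaches r = 0.865 and 0.892 with cholangiocyte markers, the row of Mmp19 is negative throughout, and no cell of Mmp13 carries an asterisk.

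Timp2 followed the cholangiocyte markers in both groups. On WTD r was 0.865 and rho 0.835 (adjusted permutation p = 0.00036 and 0.0023), and under atorvastatin r was 0.892 and rho 0.868 (adjusted permutation p = 0.00036 and 0.00036). Without the 2 mice farthest from the median of the markers, r was 0.822 and 0.839. Timp3 did likewise, with r of 0.800 on WTD and 0.778 under atorvastatin, and rho of 0.868 and 0.756 (adjusted permutation p from 0.00036 to 0.0041). For Timp3, r without the 2 farthest mice was 0.838 and 0.753. Both genes also passed by r and rho with the stellate markers in both groups. There r was 0.753 and 0.789 for Timp2, and 0.638 and 0.751 for Timp3, where 0.638 became 0.369 without the 2 farthest mice. With the macrophage markers both passed by r and rho under atorvastatin only (r of 0.745 and 0.664). Differences between the marker lists were not tested.

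Timp1 followed the macrophage markers most closely under atorvastatin, with r = 0.855 and rho = 0.912 (adjusted permutation p = 0.0004 and 0.00036) and r = 0.862 without the 2 farthest mice. On WTD its r was 0.722 and rho 0.568 (adjusted permutation p = 0.012 and 0.044), but r was 0.365 once Gen#20 and Gen#2 were left out. Mmp12 had r = 0.805 and rho = 0.803 with the macrophage markers under atorvastatin (adjusted permutation p = 0.0012 and 0.0033), and r = 0.880 without the 2 farthest mice. Under atorvastatin both genes also passed by r and rho with the stellate and the cholangiocyte markers. There r was 0.707 and 0.792 for Timp1, and 0.750 and 0.757 for Mmp12. On WTD the r of Mmp12 with the macrophage markers was 0.530 and did not pass (adjusted permutation p = 0.052). With RLE scaling it was 0.554 and passed by r (adjusted permutation p = 0.042), as did those of Mmp2 and Mmp7 with these markers. By rho with TMM scaling none of them passed. There rho was 0.315 for Mmp12, 0.282 for Mmp2 and 0.288 for Mmp7 (adjusted permutation p from 0.27 to 0.32). Without the 2 farthest mice, r was 0.298 for Mmp12 and 0.173 for Mmp7. Whether the relations of Mmp12 or Timp1 differ between the groups was not tested.

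Mmp2 went with the stellate markers in both groups, with r of 0.805 and 0.732 and rho of 0.726 and 0.671 (adjusted permutation p from 0.0022 to 0.014), and r was 0.711 and 0.622 without the 2 farthest mice. Its values with the cholangiocyte markers were as high, with r of 0.808 and 0.744 and rho of 0.779 and 0.729 (adjusted permutation p from 0.0012 to 0.0065), and r was 0.658 and 0.696 without the 2 farthest mice. Mmp14 had r = 0.887 and rho = 0.785 with the macrophage markers on WTD (adjusted permutation p = 0.0012 and 0.0033), and 0.597 without Gen#20 and Gen#2. With the cholangiocyte markers on WTD its r was 0.871 and rho 0.603 (adjusted permutation p = 0.0026 and 0.028). That r was 0.611 without the 2 farthest mice. Under atorvastatin Mmp14 passed by r and rho with all 3 lists (adjusted permutation p from 0.0026 to 0.026). There r was 0.734 with the stellate, 0.750 with the macrophage and 0.689 with the cholangiocyte markers. Without the 2 farthest mice these values were 0.570, 0.654 and 0.613. Mmp19 was the only gene with negative relations. Its r with cholangiocyte markers was -0.730 on WTD and -0.683 under atorvastatin, with rho of -0.653 and -0.718 (adjusted permutation p from 0.0029 to 0.017), and -0.633 and -0.689 without the 2 farthest mice. Gen#20 was among the 2 farthest mice for all 3 marker lists on WTD. For Mmp2 and Timp2 with macrophage markers on WTD, r fell from 0.520 and 0.626 to 0.053 and 0.063 without the 2 farthest mice, so these values rest on those mice. Under atorvastatin Mmp2 passed by both measures with the macrophage markers (r = 0.690, rho = 0.638, adjusted permutation p = 0.0067 and 0.02). There r was 0.635 without the 2 farthest mice. Mmp7 passed by both measures only with cholangiocyte markers on WTD (r = 0.773, rho = 0.609, adjusted permutation p = 0.0048 and 0.026), where r was 0.382 without the 2 farthest mice. Mmp13 passed in no relation over all mice of a group. Without the libraries poor in weak transcripts, 3 genes passed by r with the stellate markers on WTD that did not pass before. There r was 0.610 for Mmp13 (adjusted permutation p = 0.03), 0.792 for Mmp12, from 0.178 over all 16 mice, and 0.852 for Timp1, from 0.315 (adjusted permutation p = 0.0056 and 0.0061).

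Over the 16 WTD-fed mice, the genes with the pattern most like each of the 9 were ranked by Spearman's rho among 13720 genes with a mean of at least 1 CPM. For Mmp2 they were Col6a3 (rho 0.924), Plat (0.921) and Frmd6 (0.915), and over the 16 atorvastatin-treated mice the same pairs had rho 0.697, 0.906 and 0.612. Timp3 was most like Fhl2 (0.950), Lum (0.947) and Arhgap19 (0.944), with 0.788, 0.624 and 0.382 under atorvastatin. Timp2 was most like Galc (0.918), C7 (0.915) and Tgfb3 (0.897), with 0.515, 0.700 and 0.706. Mmp12 was most like Adam8 (0.891), Il1r1 (0.882) and Steap4 (0.876), with 0.829, 0.459 and 0.862. Timp1 was most like Nipbl (0.909), C1qtnf2 (0.882) and Cd9 (0.865), of which Cd9, with 0.856, had a like value under atorvastatin while Nipbl had 0.109.

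For the other genes the highest values were lower. Mmp14 was most like Ifngr1 (0.838), Lxn (0.829) and Ncf1 (0.824), and Mmp19 most like Mcfd2 (0.847), Rmdn3 (0.847) and Fam162a (0.824). Mmp7 was most like Casp12 (0.832), Ostm1 (0.818) and Sorbs2 (0.794), and Mmp13 most like Ugt8a (0.834), Rhbdl3 (0.815) and Ppp2r5c (0.803). Over the atorvastatin-treated mice these pairs ran from -0.012 for Mmp13 and Ppp2r5c to 0.626 for Mmp14 and Ifngr1. With so many genes ranked over 16 mice, a high rho in the WTD group alone describes those mice only.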

How the data were processed

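Liver RNA of 42 mice was measured by paired-end, strand-specific sequencing of polyadenylated RNA. The authors trimmed reads with Trimmomatic, aligned them with STAR to GRCm38 and a GENCODE annotation, and ran HTSeq 0.6.1p1, per the labels and the study's methods. The deposited values are raw counts of 54446 genes, without normalization, and the joint table equalled the 42 single tables. The strand setting is not given in the sources used here. Lines that name no gene (2.28% of pairs in no gene, 5.96% ambiguous, 4.68% aligned to several places, on average) were left out. Pairs shared by near-identical genes are lost in such counting.

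Symbols, positions and exon lengths came from GENCODE vM21, in which 54409 identifiers were found. The filter was filterByExpr of edgeR 4.0.16 (R 4.3.3), set to a count of 10 and a total of 15, the scaling was TMM, and 1 robust quasi-likelihood fit held all 42 mice. P values were adjusted over all 15574 tested genes by the method of Benjamini and Hochberg, and those under 0.01 were called. The standard error was computed from the log2 fold change and the test statistic. No 2 libraries of a group agreed within sampling noise. Mice were group-housed, atorvastatin was given in the food, and cages are not given. So p values measure the spread between mice and take each mouse as independent. They would be too small if mice of a cage are alike, which was not tested.

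Relations used 100000 two-sided permutations (smallest possible p 1e-05) of mice within a group, adjusted over 54, with numpy 2.4.6 and scipy 1.17.1. Intervals for 0 counts cover counting error only. Named are the 9 genes, all other tested MMPs, the 3 genes with the smallest p per list and comparison, a few further members of these lists, and the 3 genes most like each of the 9. One gene that this rule selects is not reported here. The 9 genes and the lists were chosen with earlier results of these data known. Alternatives were DESeq2 1.42.0, limma 3.58.1 (voom with quality weights), RLE and upper-quartile scaling, other filters and sets of mice. The fits were tested on simulated data. Protein sequences were not analysed here.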

Additional observations from a re-analysis of the deposited data

Results flagged for a closer look

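Mmp7 in the chow-fed mouse AZ#1 stood far from its group. It had 1.61 CPM, from 27 counts, while the next chow-fed mouse had 0.253 CPM and 7 of 10 were at 0 counts. The gap was 0.843 of the range of the group, above the critical value of 0.466 for 10 mice. This was the only flag among the 9 genes in the chow group. Chance flags about 1 in 20 where values are normally spread. With 7 of 10 mice at 0 counts, that rate does not apply to Mmp7. The WTD groups, with 16 mice each, were not tested in this way.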

How the results depend on the processing

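Leaving out each mouse in turn gave 8 called genes of 9 for WTD against chow (11 other settings: 6 to 9) and 7 for atorvastatin against chow (5 to 8). For atorvastatin against WTD, in place of 4 there were 2 called genes without the filter and 2 without the 8 libraries poor in weak transcripts (Mmp14 and Timp2), and 8 with limma-voom, 7 lower and Mmp19 higher. Leaving out 1 mouse gave 2 to 6, and 2 for each of Gen#8, Gen#9, Gen#13, Gen#14, Gen#17, Gen#21, Gen#26, Gen#29, Gen#30, Gen#31, Gen#33, Gen#35 and Gen#37. Without Gen#20 it was 6, with Timp1 and Mmp19 added. Timp3 lost its call without any of 29 of 42 mice, and Mmp2 without any of 13. Over all 42 such runs the adjusted p was 0.0025 to 0.021 for Timp3 and 0.0016 to 0.013 for Mmp2 (edgeR). Timp1 gained a call without any of 10 mice and in 4 of 9 settings. Over all genes, 1106 were called in this comparison, 3145 with limma-voom and 2021 at an adjusted p under 0.05. The cause was not tested. No call of the 9 genes changed sign under any alternative run. Without the libraries poor in weak transcripts Mmp13 was called higher in atorvastatin against chow (1.96, adjusted p = 0.0085). limma-voom also called Mmp13 higher on WTD (2.58, adjusted p = 0.0093) and in atorvastatin against chow (2.90, adjusted p = 0.0041). With only the 2 groups compared, Mmp19 was called lower in atorvastatin against chow (adjusted p = 0.0071) and Mmp7 lower against WTD (adjusted p = 0.0083). Of the other lists under atorvastatin against WTD, matrix substrates had 2 calls without the libraries poor in weak transcripts and 13 with limma-voom, in place of 6, lipid-associated macrophage markers 2 and 7, in place of 4, and cholangiocyte markers 6 with limma-voom, in place of 0. By r, relations gained 8 calls and lost 1 over the alternatives. Mmp7 with the macrophage markers on WTD is counted there with RLE scaling and again with log2(CPM + 0.1). No paired analysis was possible because the groups hold different animals, and a number that occurs with both prefixes, AZ and Gen, marks no shared litter, day or batch in the labels.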

Other observations

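Neutrophil markers, of which Mmp8 and Mmp9 are 2, rose on WTD in 4 of 6 tested cases, such as Csf3r (log2 fold change 1.19 ± 0.19) and S100a8 (2.15 ± 0.62) (2 cases without the libraries poor in weak transcripts), and none was called under atorvastatin against WTD (2 by sign higher, 4 lower, S100a9 -0.79 ± 0.35, adjusted p = 0.15, edgeR). Kupffer cell markers rose on WTD in 4 of 7 cases, such as Cd5l (3.12 ± 0.11) and Clec1b (2.42 ± 0.23). Under atorvastatin against WTD Cd5l fell by 0.39 ± 0.08 and Clec4f rose by 0.62 ± 0.16. Sinusoidal endothelial markers were mixed on WTD, with 1 higher, Lyve1 (1.56 ± 0.23), and 3 lower, among them Clec4g (-1.20 ± 0.11) and Gpr182 (-0.72 ± 0.13), and 3 of 8 rose under atorvastatin against WTD.

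Of 6 T cell markers none was called in any comparison of the main fit (Cd4 on WTD 1.69 ± 0.60, adjusted p = 0.019, edgeR), while limma-voom and DESeq2 each called 1 higher on WTD. Of 5 B cell markers, Ighm was called lower than on chow in both WTD groups by edgeR (log2 fold change -2.37 ± 0.58 in WTD-fed mice), although 12 of 16 WTD-fed and 14 of 16 atorvastatin-treated mice lay above the chow median. On WTD, limma-voom and DESeq2 called 0 of the 5 markers, and for atorvastatin against chow limma-voom and the fit of only the 2 groups called 0, while DESeq2 called 1 higher. The summed B cell markers of the chow group ran from 11.8 to 1413 CPM with a median of 32.7, so single mice set that level.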
